A study of Homo sapiens with 4 samples.

Results

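The genes described here are 10 nuclear genes whose proteins build or hold the folds of the mitochondrial inner membrane, the cristae. They were taken by symbol from the deposited tables, namely IMMT, CHCHD3, CHCHD6, APOO and APOOL of the MICOS complex, the prohibitins PHB and PHB2, and SAMM50, LETM1 and STOML2. All 10 were among the 26726 genes listed and all 10 passed the filter on low counts, which 15104 genes passed. RNA sequencing compared HN12 cells, a head and neck squamous cell carcinoma line, with and without CRISPR/Cas9 knockout of ATAD3A. There were 2 libraries from ATAD3A knockout cells (KO) and 2 from the parental cells that served as its control (WT), all grown as independent cultures in a DMEM-based medium with serum. The labels name DMEM and the study's methods name DMEM/F12. The study grew its KO cells from single cells, and the labels do not say which clone gave which library, so features of a clone and of the knockout cannot be told apart.

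Cristae are held in shape at several places. MICOS sits at the crista junction, the narrow neck where a crista joins the rest of the inner membrane, and bends the membrane there. It reaches across to the outer membrane through SAMM50, the channel subunit of the machinery that inserts β-barrel proteins. PHB and PHB2 form large rings in the inner membrane that restrain the m-AAA protease and help keep the fusion protein OPA1 intact. STOML2 is a related scaffold that binds cardiolipin, and LETM1 is an inner membrane protein of cation exchange whose loss swells mitochondria. ATAD3A spans the same membrane, with one end towards the outer membrane. The comparison asks whether the RNA of its neighbours in this membrane differed once ATAD3A was disrupted.

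Counts on genes came to between 13569971 and 18943547 per library, and the limit that a count of 0 allows, 3 counts, lay between 0.158 and 0.221 CPM before normalization, CPM being counts scaled to the size of the library. Such limits cover counting error only. ATAD3A itself was at 116 and 106 CPM in WT and at 38.1 and 30.0 CPM in KO, a log2 fold change (KO against WT, so that 1 is a doubling) of -1.70 (adjusted p = 1.58e-17 by quasi-likelihood testing in edgeR, adjusted after Benjamini and Hochberg over all tested genes), so the libraries matched their labels. ATAD3B, the neighbouring paralog, was at 72.5 and 81.1 CPM in WT and at 157 and 142 CPM in KO. Of the 50-nt stretches of ATAD3A transcripts, 36.4% also occur in other genes, ATAD3B among them. The 7 squamous markers checked were all detected and summed to between 1733 and 1751 CPM in WT and between 4371 and 4400 CPM in KO, with 5 higher, KRT5 most in CPM, and 2 lower, TP63 and CDH1. This difference lies between the same groups as every comparison here, and its part in the results was not tested. Markers of other cell types were low. The 2 leucocyte markers in the table summed to at most 0.528 CPM in any library, and the 2 fibroblast markers in the table to between 11.1 and 14.9 CPM with overlapping groups. The single endothelial marker in the table, VWF, lay between 0.791 and 1.69 CPM. In bulk RNA, fewer cells of a type and less RNA per cell cannot be told apart.

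The stretch of DNA around the transcription start was compared first, since it was not used to choose the genes. RefSeq windows on GRCh38.p14, from 250 bases before to 50 bases after the start, were found for 9 of the 10 genes, and LETM1 had no entry. The windows of PHB, PHB2 and STOML2 are printed because these genes rose in KO cells, that of IMMT because it is the core of MICOS and did not, and that of OPA1 because it was the partner gene with the smallest p among those that fell. Capitals mark the motifs found, on either strand, and no marked motifs overlap.
PHB, chr17:49414833-49415132, minus strand: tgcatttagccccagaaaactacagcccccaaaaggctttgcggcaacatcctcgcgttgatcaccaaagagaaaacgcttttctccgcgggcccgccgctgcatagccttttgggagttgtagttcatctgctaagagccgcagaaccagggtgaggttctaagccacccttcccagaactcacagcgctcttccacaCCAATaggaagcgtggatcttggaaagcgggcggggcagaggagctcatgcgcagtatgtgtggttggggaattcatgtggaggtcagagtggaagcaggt
PHB2, chr12:6970615-6970914, minus strand: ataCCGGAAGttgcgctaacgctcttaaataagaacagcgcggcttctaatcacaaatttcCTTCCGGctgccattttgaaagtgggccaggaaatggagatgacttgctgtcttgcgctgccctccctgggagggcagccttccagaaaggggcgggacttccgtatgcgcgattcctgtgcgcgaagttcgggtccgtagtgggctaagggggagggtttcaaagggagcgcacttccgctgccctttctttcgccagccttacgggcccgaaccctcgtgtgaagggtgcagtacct
STOML2, chr9:35103146-35103445, minus strand: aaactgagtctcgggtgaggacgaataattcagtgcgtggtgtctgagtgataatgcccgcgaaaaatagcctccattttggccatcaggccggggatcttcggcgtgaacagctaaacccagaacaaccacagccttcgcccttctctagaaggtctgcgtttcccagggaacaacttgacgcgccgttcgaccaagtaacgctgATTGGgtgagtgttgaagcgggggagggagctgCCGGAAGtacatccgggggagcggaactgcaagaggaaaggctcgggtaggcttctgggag
IMMT, chr2:86195413-86195712, minus strand: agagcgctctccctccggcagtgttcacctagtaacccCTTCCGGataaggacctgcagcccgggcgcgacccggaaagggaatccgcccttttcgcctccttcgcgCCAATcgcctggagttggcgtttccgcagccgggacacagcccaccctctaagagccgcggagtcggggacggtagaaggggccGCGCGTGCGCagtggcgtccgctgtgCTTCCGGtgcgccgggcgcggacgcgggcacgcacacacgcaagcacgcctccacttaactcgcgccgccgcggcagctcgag
OPA1, chr3:193592958-193593257, plus strand: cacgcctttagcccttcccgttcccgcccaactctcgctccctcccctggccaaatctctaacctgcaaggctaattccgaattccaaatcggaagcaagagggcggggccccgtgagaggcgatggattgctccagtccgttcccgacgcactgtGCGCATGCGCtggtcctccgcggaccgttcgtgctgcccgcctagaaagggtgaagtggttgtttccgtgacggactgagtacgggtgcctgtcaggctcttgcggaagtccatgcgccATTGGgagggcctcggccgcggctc

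A set of 7 motifs was searched on both strands. The ETS motif CCGGAAG was found in 4 of the 9 windows, those of IMMT, APOO, PHB2 and STOML2, against 10.3% of all 35116 RefSeq windows. Those windows were not limited to genes tested here, so these shares show no enrichment against expressed genes. The letters CCAAT were found in 6 of the 9, against 34.6% of all windows, and the windows without them were those of APOO, APOOL and PHB2. The NRF1 motif was found in IMMT alone of the 9, against 5.78% of all windows, and also in OPA1. The remaining motifs were in none of the 9 windows, namely the E-box CACGTG, the YY1 motif AAGATGGC, the TATA box TATAAA and the ERR motif AAGGTCA. They were in 7.26%, 2.89%, 11.5% and 3.92% of all windows. PHB and PHB2, which make one ring, shared no motif of this set. These matches describe letters in a window and say nothing of whether a factor binds.

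Levels between genes were compared per length, in the deposited RPKM values (CPM per kilobase of gene). PHB2 was the highest of the 10 genes in both groups, at 152 ± 2.52 RPKM (SD, n = 2) in WT and 176 ± 13.6 RPKM (SD, n = 2) in KO. STOML2 came next, at 119 ± 2.998 RPKM (SD, n = 2) in WT and 128 ± 8.17 RPKM (SD, n = 2) in KO. In WT, IMMT at 56.0 ± 1.55 RPKM (SD, n = 2) was above PHB at 48.5 ± 5.90 RPKM (SD, n = 2). In KO this order was turned, with PHB at 60.4 ± 5.32 RPKM (SD, n = 2) and IMMT at 53.1 ± 4.38 RPKM (SD, n = 2), and within each group the libraries of these genes did not overlap. CHCHD3 followed at 38.3 ± 2.89 RPKM (SD, n = 2) in WT, and LETM1 at 15.8 ± 2.08 RPKM (SD, n = 2). SAMM50, APOOL, CHCHD6 and APOO were lowest, between 6.97 and 11.7 RPKM on average in WT. Among these, SAMM50 and APOOL overlapped in WT, and in KO each of the 4 overlapped its neighbour in the order.

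**Figure D1:**
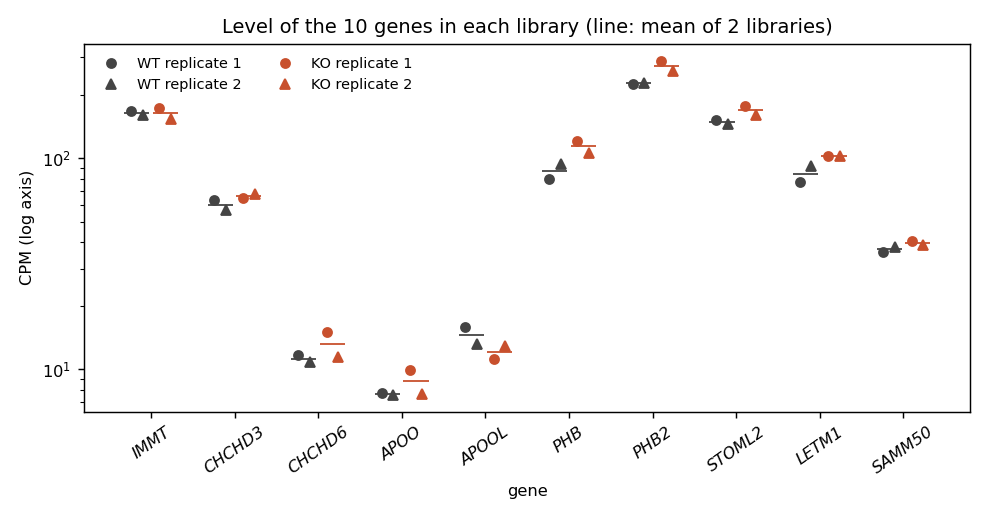
CPM of each gene in each library on a log axis, with WT in dark grey and KO in orange, replicate 1 as circles, replicate 2 as triangles and the mean of 2 libraries as a line. KO points lie wholly above WT points for CHCHD3, PHB, PHB2, STOML2, LETM1 and SAMM50 and wholly below them for APOOL.

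Of the 10 genes, 4 were higher in KO cells, namely PHB, PHB2, LETM1 and STOML2, and 0 were lower, at an adjusted p under 0.05 in edgeR. Over all genes tested, 20.4% were higher and 19.1% lower by the same rule, 39.5% in all. At an unadjusted p under 0.05 in edgeR the same 4 were higher and 0 lower. The share of all genes at that limit was not counted, so this adds no support. DESeq2 called 3 higher and 0 lower, where it called 15.8% of all genes higher and 14.6% lower. The study's own limits join the unadjusted p to a minimum fold in either direction, and the study set them on a DESeq test. Applied here to the edgeR fit, they left PHB alone, against 17.0% higher and 12.2% lower over all genes, 29.2% in all. With a library left out, the log2 fold change of PHB ran from 0.28 to 0.51. Tested against a minimum fold (edgeR's glmTreat), 0 of the 10 genes were called, with adjusted p from 0.278 for PHB upwards. By that test 7.91% of all genes were higher and 6.34% lower. Both KO libraries lay above both WT libraries in 6 of the 10 genes and below them in 1, where all genes gave 34.1% and 34.0%. The median log2 fold change was 0.20, beside -0.0042 over all genes. The group as a whole was not tested, and these counts are a description.

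Both prohibitins rose. PHB (ENSG00000167085, chromosome 17 of GRCh38, 49404049 to 49414905, minus strand) was at 79.6 and 94.2 CPM in WT and at 121 and 106 CPM in KO. Every KO library was above every WT library, and the gap between the WT replicates was more than the gap from the higher WT to the lower KO library. Its log2 fold change was 0.39 (SE 0.077, edgeR adjusted p = 9.55e-05), a level 31.0% higher with a 95% interval from 17.5% to 46.1%. PHB2 (ENSG00000215021, chromosome 12, 6965327 to 6970825, minus strand) was at 224 and 228 CPM in WT and at 290 and 259 CPM in KO, again without overlap. Its log2 fold change was 0.28 (SE 0.059, edgeR adjusted p = 0.000203), which is 21.4% with an interval from 11.7% to 31.8%. The ratio of PHB to PHB2 per length was 0.295 and 0.342 in WT and 0.346 and 0.340 in KO, so the subunits kept overlapping proportions. With offsets that remove the trend by GC content and by length (the GC and length correction), PHB was at a log2 fold change of 0.22 (edgeR adjusted p = 0.0148) and PHB2 at 0.016 (edgeR adjusted p = 0.845), and the call of PHB2 was lost. Pseudogenes and other genes hold 7.04% of the 50-nt stretches of PHB transcripts. Exons of a gene on the other strand cover 25.1% of PHB's exon bases, and the use of strand in counting is not given, so reads of the pair cannot be told apart. Genes on the same strand share 9.56% of PHB2's exon bases.

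LETM1 and STOML2 were also higher in KO cells. LETM1 (ENSG00000168924, chromosome 4, 1811479 to 1856247, minus strand) was at 76.8 and 92.1 CPM in WT and at 102 and 103 CPM in KO. The KO libraries were nearly equal and the spread lay in the WT pair. The log2 fold change was 0.28 (SE 0.076, edgeR adjusted p = 0.00323). It was 0.16 without WT replicate 1 (edgeR adjusted p = 0.264) and 0.41 without WT replicate 2, so the call and its size rested on which WT library was kept. After the correction for GC content and length it was 0.16 (edgeR adjusted p = 0.0730). STOML2 (ENSG00000165283, chromosome 9, 35099776 to 35103195, minus strand) was at 151 and 145 CPM in WT and at 176 and 161 CPM in KO. Its log2 fold change of 0.19 (SE 0.063, edgeR adjusted p = 0.0179) was the smallest of the 4 calls. The call was lost without WT replicate 1 (0.22, edgeR adjusted p = 0.0595), without WT replicate 2 (0.15, adjusted p = 0.206) and without KO replicate 1 (0.12, adjusted p = 0.176). DESeq2 gave STOML2 an adjusted p of 0.0558, and after the GC and length correction its log2 fold change was -0.053. On the log2(RPKM + 1) scale neither LETM1 at 0.20 (limma adjusted p = 0.134) nor STOML2 at 0.11 (limma adjusted p = 0.163) was called, while PHB at 0.31 and PHB2 at 0.21 were.

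The core of MICOS showed no change past the threshold. IMMT (ENSG00000132305, chromosome 2, 86143932 to 86195770, minus strand), the large subunit also called mitofilin or MIC60 that anchors the complex, was at 168 and 161 CPM in WT and at 173 and 154 CPM in KO. The WT libraries lay inside the range of the KO pair. Its log2 fold change of -0.0060 had a 95% interval from -0.14 to 0.12 (edgeR adjusted p = 0.955), which is from -8.99% to 8.96%. CHCHD3 (ENSG00000106554, MIC19, chromosome 7, 132784868 to 133082088, minus strand), which joins IMMT to SAMM50, was at 63.2 and 56.6 CPM in WT and at 64.9 and 67.5 CPM in KO. KO was above WT without overlap, by a log2 ratio of 0.038 at the nearest libraries, and the log2 fold change of 0.14 did not pass the threshold (interval -0.027 to 0.31, edgeR adjusted p = 0.182). Of the 50-nt stretches of CHCHD3 transcripts, 12.1% also occur in other genes. CHCHD6 (ENSG00000159685, MIC25, chromosome 3, 126704220 to 126960406, plus strand), the paralog of CHCHD3, was at 11.7 and 10.8 CPM in WT and at 15.0 and 11.5 CPM in KO. The groups overlapped, with KO replicate 1 apart from the other 3 libraries, and the log2 fold change of 0.24 had an interval from -0.10 to 0.58 (edgeR adjusted p = 0.283). Per length, CHCHD3 was 3.92 and 3.81 times CHCHD6 in WT and 3.15 and 4.27 times in KO.

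The apolipoprotein-like subunits of MICOS did not pass the threshold either, and APOO, with the fewest counts, had the widest interval of the 10. APOO (ENSG00000184831, MIC26, 23833353 to 23907934, minus strand) and APOOL (ENSG00000155008, MIC27, 85003826 to 85093316, plus strand) bind IMMT and lipids of the inner membrane, and both lie on chromosome X. APOO was at 7.68 and 7.55 CPM in WT and at 9.93 and 7.62 CPM in KO. KO replicate 2 lay between the WT libraries, and the log2 fold change was 0.21 (interval -0.20 to 0.61, edgeR adjusted p = 0.445). APOOL was at 15.8 and 13.2 CPM in WT and at 11.2 and 12.9 CPM in KO. It was the only one of the 10 genes with both KO libraries below both WT libraries, at a log2 fold change of -0.28 (interval -0.60 to 0.047, edgeR adjusted p = 0.175). The ratio of APOO to APOOL per length was 0.556 and 0.653 in WT and 1.02 and 0.678 in KO. Both KO libraries were above both WT libraries in this ratio, KO replicate 1 by more, and the difference was not tested. SAMM50 (ENSG00000100347, chromosome 22, 43955421 to 44010531, plus strand) was at 35.9 and 38.1 CPM in WT and at 40.4 and 38.8 CPM in KO, a log2 fold change of 0.10 (interval -0.10 to 0.30, edgeR adjusted p = 0.460).

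**Figure D2:**
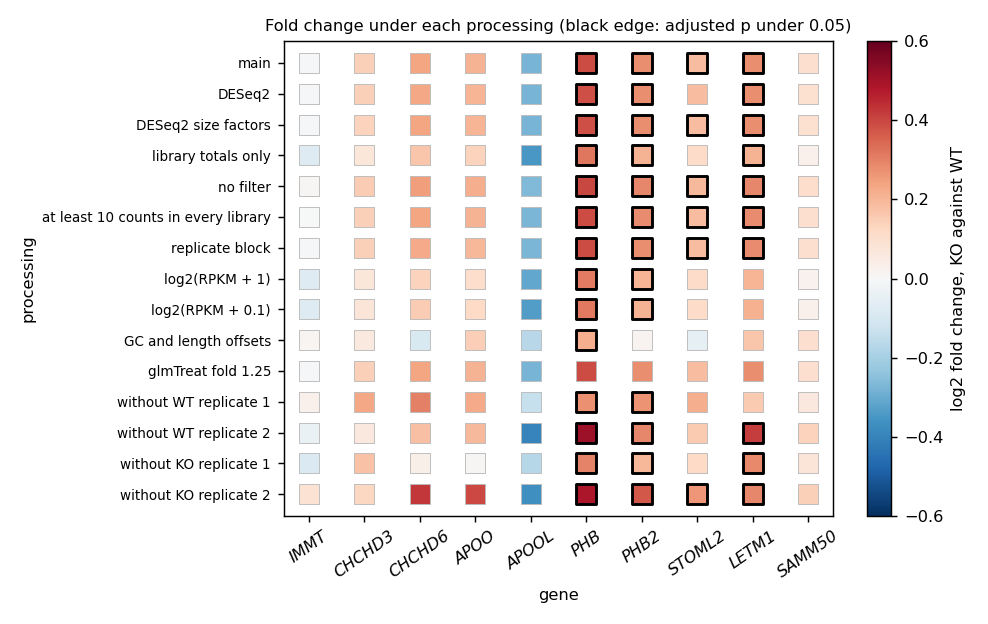
Log2 fold change of KO against WT for each gene (columns) under each way of processing (rows, the result as reported at the top), as colour from blue for lower to red for higher, with a black edge where the adjusted p was under 0.05. PHB is past the threshold in all rows but the test against a minimum fold, where no gene is, while the 5 MICOS genes and SAMM50 are past it in none.

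Genes of high GC content and short genes tended to be higher in KO cells across the whole table. Over tested genes with an average log2 CPM over 2, the median log2 fold change rose from -0.22 in the lowest of 5 equal groups by GC content to 0.27 in the highest. By length it fell from 0.17 in the shortest of 5 groups to -0.15 in the longest. The 4 genes that rose have a GC content of 53.4% to 58.5%, and PHB, PHB2 and STOML2 are 1832, 1518 and 1278 nt long, while LETM1 has 5462 nt. CHCHD6 has the highest GC content of the 10 at 59.2% and is 1159 nt long, and APOO is the shortest at 1118 nt, yet neither was called. APOOL, the gene with both KO libraries lower, has the lowest GC content of the 10 at 37.6%. Its 1279 nt place it in the shortest group, where the median was 0.17. With offsets for both properties, 1 of the 10 genes was called, PHB, where 17.1% of all genes were higher and 16.5% lower, and the median log2 fold change of the 10 was 0.037 beside -0.011 for all genes. Whether the trend is technical was not tested.

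**Figure D3:**
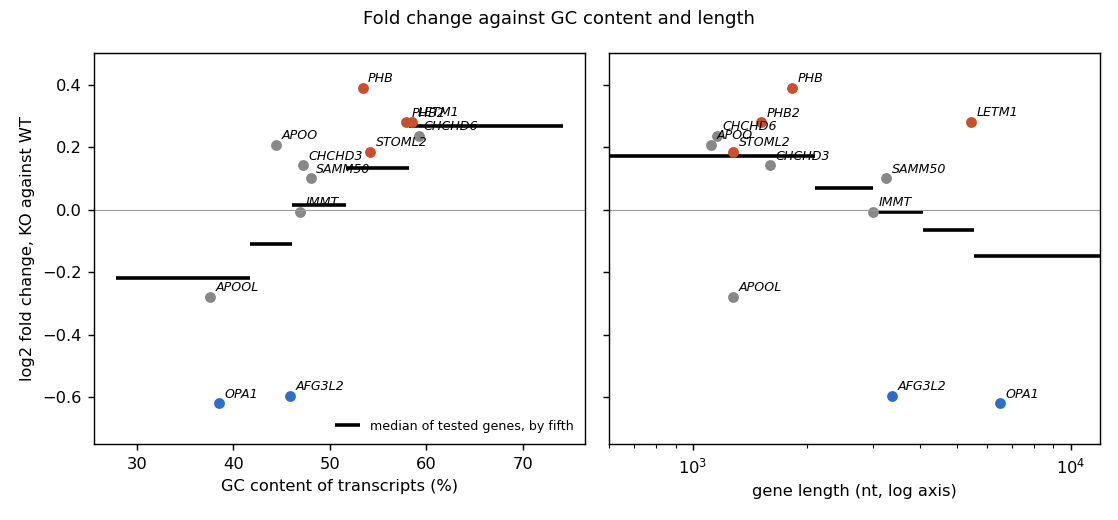
Log2 fold change of KO against WT (vertical axis) against the GC content of each gene's transcripts in percent (left) and gene length in nt on a log axis (right), for the 10 genes, OPA1 and AFG3L2. Orange points were higher, blue points lower and grey points not past the threshold, and black lines give the median of tested genes in each of 5 equal groups, from -0.22 to 0.27 by GC content.

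Other genes that act in the same membranes were examined by role, in lists chosen with earlier results of these data known. The counts by role are therefore a description, and no role group was tested as a whole. Of 42 partner genes listed by role, 41 were tested, and 13 were higher and 7 lower in KO cells, where all genes gave 20.4% and 19.1%. The list's median log2 fold change was 0.12 before and -0.016 after the GC and length correction, under which 11 were higher and 9 lower, beside 17.1% and 16.5% of all genes. The untested gene was ATP5I, subunit e of ATP synthase, with 4 to 11 counts a library. Exons on the other strand cover 61.6% of it.

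Of 8 genes of inner membrane proteases and fusion, 4 were lower in KO cells, namely OPA1, AFG3L2, OMA1 and PARL, 1 was higher and 3 did not pass the threshold, against 19.1% lower and 20.4% higher over all genes. OPA1 (ENSG00000198836), the dynamin-like protein that fuses inner membranes and narrows crista junctions, was at 190 and 191 CPM in WT and at 125 and 124 CPM in KO. Replicates differed little and the groups stood far apart, with a log2 fold change of -0.62 (SE 0.061, edgeR adjusted p = 1.95e-10). After the GC and length correction it was -0.32 (edgeR adjusted p = 1.57e-05). AFG3L2, the m-AAA protease subunit that prohibitin rings restrain, was at 93.2 and 88.1 CPM in WT and at 61.9 and 58.1 CPM in KO, a log2 fold change of -0.60 (edgeR adjusted p = 8.64e-08) that held at -0.53 after the correction. OMA1, the stress-activated protease that cleaves OPA1, was at 7.62 and 8.196 CPM in WT and at 4.99 and 5.91 CPM in KO (log2 fold change -0.54, edgeR adjusted p = 0.0484). Its call was lost in DESeq2 (adjusted p = 0.159) and in fits without WT replicate 1 (adjusted p = 0.103), WT replicate 2 (0.186) or KO replicate 1 (0.228), and it was -0.41 after the correction (adjusted p = 0.145). YME1L1, which cleaves OPA1 in unstressed cells, was at 176 and 187 CPM in WT and at 176 and 169 CPM in KO and did not pass (edgeR adjusted p = 0.349). C1QBP, a matrix protein, was the gene of this group that rose, by 0.34 on the log2 scale (edgeR adjusted p = 4.18e-06), and was at 0.18 after the correction. PARL, named after its values were seen, was at -0.24 (edgeR adjusted p = 0.0138) and at -0.32 after the correction. Genes on the same strand share 47.2% of PARL's exon bases, and 55.5% of its 50-nt stretches occur in other genes.

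Of 9 genes of MICOS and its bridge to the outer membrane, 4 were higher and 1 was lower, against 20.4% higher and 19.1% lower over all genes. MICOS13, listed as C19orf70 and needed to join the IMMT side of MICOS to the APOO side, was at 18.6 and 20.8 CPM in WT and at 31.8 and 30.2 CPM in KO. The log2 fold change of 0.66 (edgeR adjusted p = 2.48e-05) was 0.26 after the GC and length correction (edgeR adjusted p = 0.0795), and GC content is 60.8%. CHCHD10, CHCHD2 and MTX2, named after their values were seen, completed the 4, and of these MTX2 alone stayed called after the correction, at 0.26 (edgeR adjusted p = 0.0198). MTX3, a metaxin of the outer membrane, fell from 39.5 and 40.8 CPM in WT to 23.1 and 26.2 CPM in KO, by 0.71 on the log2 scale (edgeR adjusted p = 1.67e-06), and by 0.41 after the correction. MICOS10, listed as MINOS1, is the membrane-bending small subunit and held only 38 to 62 counts a library. Its log2 fold change was -0.16 (interval -0.85 to 0.53), and 11.7% of its exon bases are shared with genes on the same strand.

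ATP synthase forms rows of dimers along crista edges, and the group listed here holds small subunits of that interface and the inhibitor that binds the enzyme. All 4 tested genes of this group were higher, before and after the GC and length correction, where 20.4% and 17.1% of all genes were higher. This group too was listed with earlier results known, so the count is a description. ATPIF1, the inhibitor, was at 68.4 and 77.1 CPM in WT and at 113 and 97.2 CPM in KO, a log2 fold change of 0.53 (edgeR adjusted p = 1.03e-06) and of 0.41 after the correction. ATP5L, C14orf2 and USMG5, named after their values were seen, were at log2 fold changes of 0.46, 0.49 and 0.44, and at 0.52, 0.48 and 0.33 after the correction. Other genes hold 16.75% of the 50-nt stretches of ATP5L transcripts and 15.85% of those of USMG5. Genes on the same strand share 8.19% and 15.37% of their exon bases.

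Among 9 genes of cardiolipin and phosphatidic acid, 1 was higher and 1 lower, against 20.4% higher and 19.1% lower over all genes. PRELID1, which carries phosphatidic acid across the space between the membranes, was at 56.1 and 55.7 CPM in WT and at 89.7 and 84.7 CPM in KO. Its log2 fold change was 0.64 (edgeR adjusted p = 2.41e-08), and 0.36 after the correction, while 61.8% of its exon bases lie under exons of MXD3 on the other strand. PISD, which makes phosphatidylethanolamine in the inner membrane, fell by 0.22 on the log2 scale (edgeR adjusted p = 0.0127), by 0.40 after the correction. Its call was lost without WT replicate 2 (-0.16, adjusted p = 0.233) or KO replicate 2 (-0.17, adjusted p = 0.0890). Of 5 LETM1 relatives and cation exchange genes, 1 was higher and 1 lower, against the same shares over all genes. LETM2 rose by 0.71 (edgeR adjusted p = 0.00096) and GHITM fell by 0.41 (edgeR adjusted p = 1.89e-07) on the log2 scale. The call of LETM2 was lost without KO replicate 1 (0.46, adjusted p = 0.0732). Of 6 SPFH genes, relatives of prohibitin in other membranes, 2 were higher and 0 lower, where all genes gave 20.4% and 19.1%. STOM rose most, by 0.65 (edgeR adjusted p = 5.80e-10), from 99.5 and 93.7 CPM in WT to 146 and 156 CPM in KO.

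**Figure D4:**
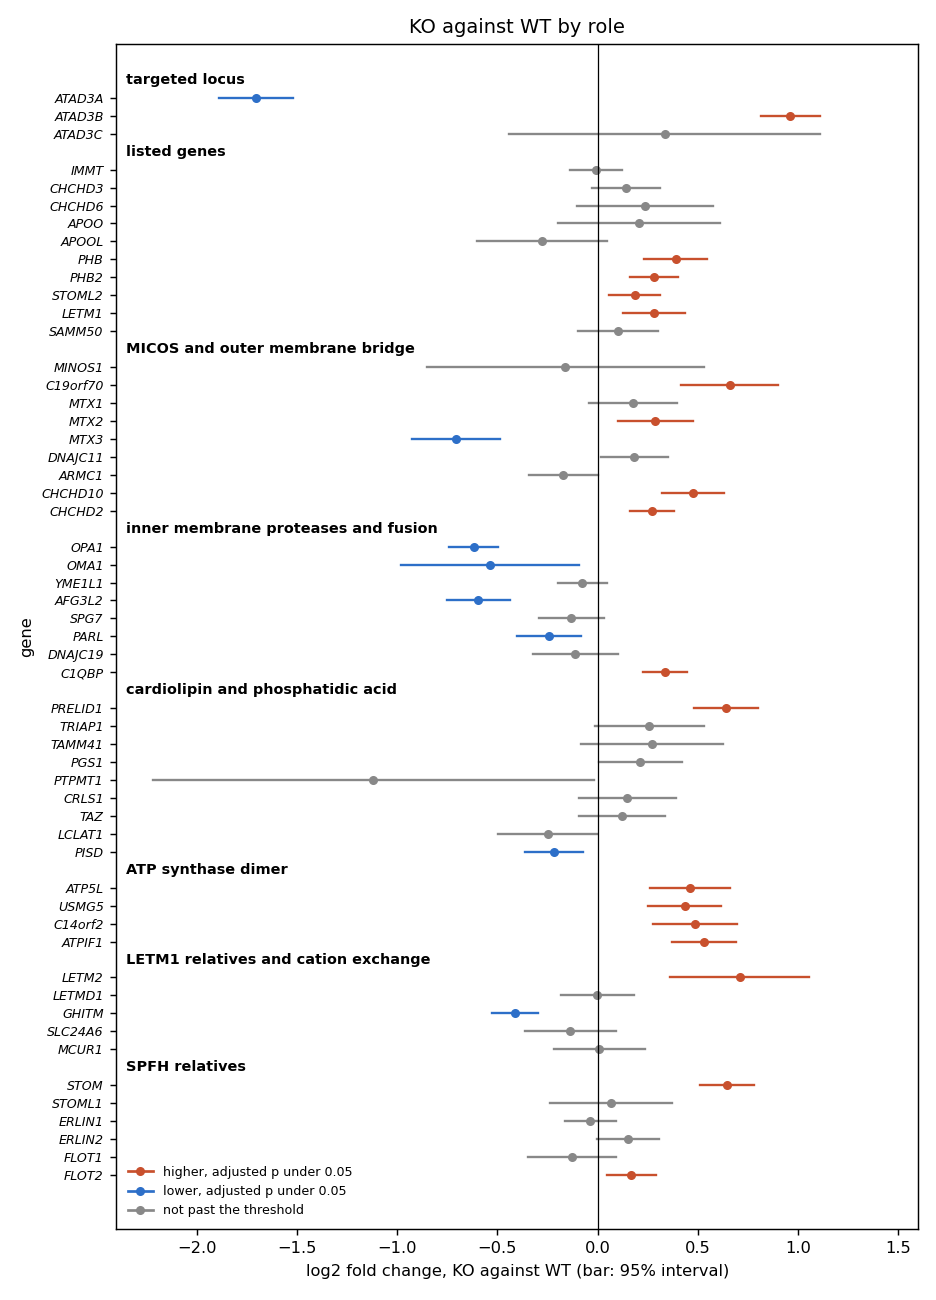
Log2 fold change of KO against WT with its 95% interval for the ATAD3 genes, the 10 genes and the 41 tested partner genes, grouped by role, in orange where higher, blue where lower and grey where not past the threshold. The 10 genes lie between -0.28 and 0.39, the tested ATP synthase dimer genes between 0.44 and 0.53, and OPA1 and AFG3L2 at -0.62 and -0.60.

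All 7 partner genes that fell lie where the median of their tested neighbours was below 0, as does APOOL, with -0.32 over 11 neighbours. Medians below 0 were not confined to them, and the share of all tested genes with such a median was not counted. Of the partner genes that rose, CHCHD2, CHCHD10, MTX2 and FLOT2 had medians of -0.17, -0.071, -0.045 and -0.014, and the others had medians above 0. Uncalled partner genes lay on both sides, such as DNAJC19 with -0.34 and DNAJC11 with 0.23. Among tested genes within 5 Mb of OPA1 on chromosome 3, 59 in number, the median log2 fold change was -0.27. For AFG3L2 on chromosome 18 it was -0.49 over 28 neighbours, of which 92.9% were below 0, and over the 194 other tested genes of the chromosome it was -0.76. GHITM, at -0.41 itself, had a median of -0.41 over 36 neighbours, PARL one of -0.34 over 68 and PISD one of -0.27 over 71. The medians near MTX3 and OMA1 were -0.18 and -0.13. CHCHD6, also on the long arm of chromosome 3, had 67 neighbours with a median of -0.31, and its own value of 0.24 lay above it. For PHB the median was 0.069 over 108 neighbours, for PHB2 -0.015 over 101, for STOML2 -0.012 over 79 and for LETM1 0.21 over 67. After the GC and length correction the medians near OPA1 and AFG3L2 were -0.27 and -0.37, near OMA1 0.030 and near LETM1 0.076. The part of the neighbourhood in these changes was not tested.

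**Figure D5:**
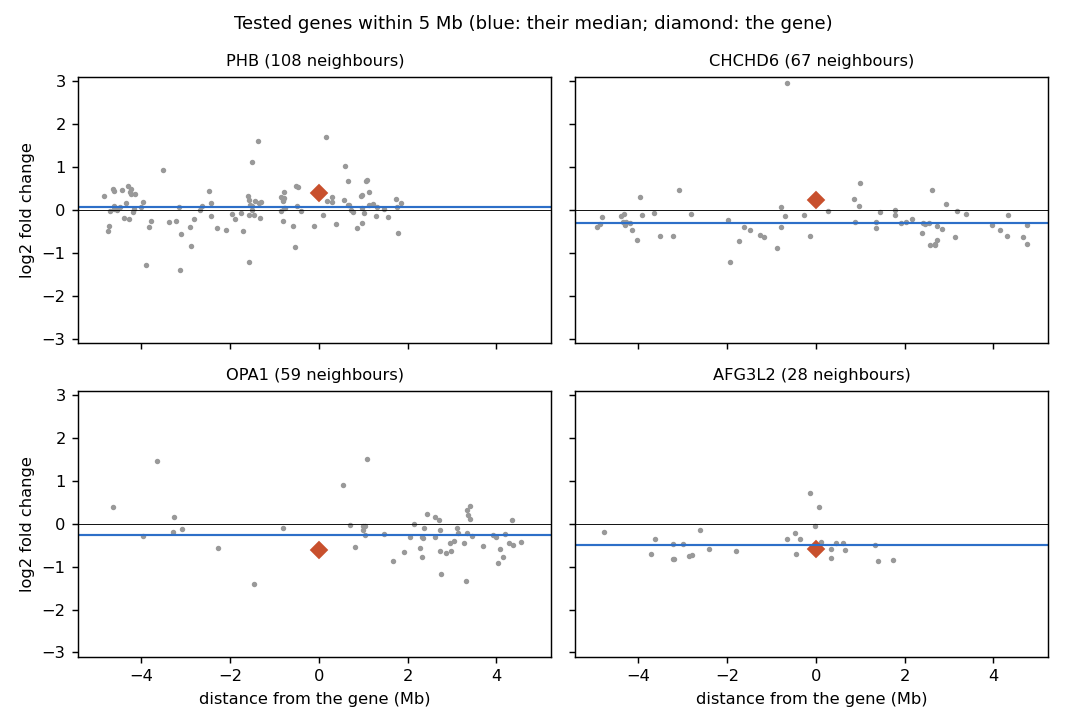
Log2 fold change of KO against WT for tested genes by their distance in Mb from PHB, CHCHD6, OPA1 and AFG3L2, with the gene itself as an orange diamond and the median of the neighbours as a blue line. The medians are 0.069, -0.31, -0.27 and -0.49, and CHCHD6 lies above its neighbours' median while OPA1 lies below its own.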

How the data were processed

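RNA of 2 ATAD3A knockout and 2 parental HN12 cultures was sequenced in 50-nt Illumina reads. The authors deposited whole-number read counts per gene and RPKM values per gene for each library. Per the labels, the submitters' processing notes name CASAVA, STAR 2.5, HTSeq, edgeR 3.16.5, DESeq2 2 and hg19. The annotation, strand setting and overlap mode are not given in the sources used here. No column of the tables was left unused (0 value columns).

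The counts were tested with edgeR 4.0.16 in R 4.3.3 (filterByExpr, TMM, quasi-likelihood test, Benjamini-Hochberg adjustment over 15104 genes). A gene was called at an adjusted p under 0.05. The common biological coefficient of variation was 5.88%. CPM values are TMM-normalized, except marker sums, which use library totals. The replicates are independent cultures, 2 a group. The edgeR p-values set a difference against a spread between cultures that is estimated with help from all tested genes. They do not rest on a gene's own 2 cultures a group alone. Alternatives were DESeq2 1.42.0, its size factors, library totals, no filter or a minimum of 10 counts, a replicate block, limma 3.58.1 on log2(RPKM + 1) and log2(RPKM + 0.1), GC and length offsets (splines of 4 degrees of freedom), edgeR's test against a minimum fold (glmTreat, at the study's upper fold limit), and leaving out each library. The edgeR, DESeq2, offset and limma fits were run on simulated data, with the same spread set for every gene. Those data held no trend by GC content or length, so they could not test the removal of such a trend.

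Members and lists were chosen with earlier results of these data known. The text names all 10 genes, the called partner gene with the largest rise and fall in each role, and OPA1, OMA1, YME1L1, AFG3L2, MICOS10 and MICOS13. Positions and GC content come from GENCODE on GRCh38, matched by Ensembl ID for 25550 of 26726 genes. Since the notes name hg19, positions only place the genes. Of 16 cell type markers, 12 have a row. Promoter windows come from RefSeq.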

Additional observations from a re-analysis of the deposited data

How the results depend on the processing

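Against 4 of the 10 genes higher in KO cells, both RPKM scales gave 2, GC and length offsets gave 1, and a test against a minimum fold (glmTreat) gave 0. The share of all genes higher was 20.4%, and 14.2%, 17.1% and 7.91% in these alternatives. None of the 10 was called lower in any alternative that kept all 4 libraries. With a library left out, the log2 fold change of PHB ran from 0.28 to 0.51 and that of PHB2 from 0.20 to 0.37. LETM1 ran from 0.16 to 0.41 and STOML2 from 0.12 to 0.26. By the study's thresholds, 1 gene was called, and 0 with library totals, either RPKM scale, GC and length offsets or glmTreat. The share of all genes past these thresholds was 29.2% in the main fit and was not counted for the alternatives. Partner genes higher in KO numbered 13, and 6 in glmTreat, where 3 were lower rather than 7. Over all genes glmTreat gave 7.91% higher and 6.34% lower. On the log2 scale and with a library left out, OPA1 ran from -0.62 to -0.60, AFG3L2 from -0.64 to -0.54 and MTX3 from -0.78 to -0.61. GHITM ran from -0.46 to -0.34, PISD from -0.27 to -0.16 and OMA1 from -0.65 to -0.41. The log2 fold change of IMMT, -0.0060, was 0.0056 without the filter and 0.013 with GC and length offsets, and ran from -0.090 to 0.090 with a library left out, being 0.030 without WT replicate 1. With those offsets CHCHD6 was at -0.094, STOML2 at -0.053 and YME1L1 at 0.11, all opposite in sign. MINOS1, at -0.16, ran from -0.45 to 0.090 with a library left out, the last without KO replicate 2. The cause was not tested. With the replicate number as a block, 4 of the 10 genes were higher and 0 lower, and 13 partners were higher and 7 lower. All genes gave 19.9% higher and 18.6% lower in that fit. Deviations of same-numbered libraries from their group means correlated at -0.0571 over 11224 genes, so no strong shared shift was seen. With 2 libraries a group, this cannot tell whether they were handled as pairs. Depth limits ATP5I, PTPMT1, MINOS1, OMA1 and, among the 10 genes, APOO most. PTPMT1, of the cardiolipin group, held only 12 to 26 counts a library. Its log2 fold change was -1.12 (interval -2.22 to -0.020, edgeR adjusted p = 0.101), past the study's thresholds but not called.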

Other observations

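A list of 12 genes that stand for mitochondrial content, import and matrix functions showed no single direction. TOMM40, VDAC1, TIMM44 and TUFM were higher in KO cells, TOMM20, VDAC2, TFAM and TIMM23 were lower, and 4 did not pass the threshold in edgeR, where all genes gave 20.4% higher and 19.1% lower. Their log2 fold changes had a median of 0.072, and of 0.086 after the GC and length correction. Per length, OPA1 was 0.199 and 0.196 times PHB2 in WT and 0.101 and 0.112 times in KO. OPA1 was 0.666 and 0.628 times YME1L1 in WT and 0.436 and 0.452 times in KO, again without overlap. STOML2 was 0.802 and 0.756 times PHB2 in WT and 0.723 and 0.737 times in KO.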
